A study of Mus musculus with 5 samples.

Results

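Myometrial smooth muscle genes were examined in whole uteri of mice aged 15 days. The set held 36 genes, named by their roles in smooth muscle contraction: the actins, myosins, tropomyosins and their partners, the proteins that anchor them, channels and receptors that set contraction, and the transcription factors of the programme. On the array they are listed in capitals, as ACTA2, ACTG2, MYH11, CNN1, TAGLN and DES, and 35 of the 36 were among the 15733 genes tested. Each was read from 1 probe, the brightest of its probes over all 5 arrays.

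Each sample was a pool of uteri, with total RNA hybridised to 1 Illumina bead array. The 3 control pools (7, 9 and 11) came from mice labelled wild type. The 2 Dicer cKO pools (10 and 12) came from mice in which Cre, expressed from the progesterone receptor locus, deleted Dicer, the enzyme that cuts microRNA precursors. All pools shared the mixed C57BL/6J;129S5/Brd background and the age. The number of uteri in a pool, whether controls carried Cre or floxed alleles, and whether Cre acted in the muscle cells of these mice are not stated by the labels. Nor do they say that the pools were separate litters, and a p-value therefore reflects pool-to-pool spread only, which may be technical. Of 45281 probes, 47.0% to 49.5% passed detection on each array, and log2 signals correlated at 0.993 to 0.994 within groups and at 0.978 to 0.989 between them across the genes tested. The labels call the array a human one, whereas its probes are named for mouse genes. No pair of arrays shared more than 0.601% of its intensities exactly.

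The myometrium is the muscle wall of the uterus, and in mice its layers are completed after birth. Its cells shorten when calcium and calmodulin switch on myosin light chain kinase, which phosphorylates the regulatory light chain of myosin so that it pulls on actin, and they relax when a myosin phosphatase removes that phosphate. The genes of this apparatus are commonly switched on together by serum response factor and its cofactor myocardin, and several microRNAs are known to support the contractile state of smooth muscle cells. Vessel walls hold smooth muscle too and share nearly all of these genes, so a whole-uterus array reads both.

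Genes of the contractile programme were called at shares near those of all genes tested. Of the 35 genes tested, 1 rose (Ppp1r14a, by 0.40 on the log2 scale), 1 fell (Hspb1, by 0.67) and 33 did not pass the threshold of a limma adjusted p under 0.05 over all genes. Across all genes tested, 2.78% were called higher and 3.96% lower. The core muscle markers Acta2, Actg2, Myh11, Tagln and Des were detected on all 5 arrays, and their differences lay between 0.042 and 0.11, while that of the dim marker Cnn1, detected on 4 arrays, was -0.34 ± 0.20 and not called. Over the 35 genes the median difference was 0.066, against 0.015 over all genes, and the median absolute difference was 0.086 against 0.13. The muscle genes also varied less among the controls, with a median SD of 0.070 over 3 pools against 0.11 for all genes. Many of them were bright, with control means of 14.29 for Acta2 and 14.83 for Myl6. The genes compared were not matched for signal level, and whether brightness accounts for the smaller differences and spread was not tested.

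How far the data bound a change can be read from the 95% intervals of the differences, which come from the fit. For 35 of 35 genes the interval lay within 1 log2 unit on either side of 0, that is, within 2-fold. These bounds are for normalized signal, and the amount of transcript per uterus was not measured. For 28 of 35 (80.0%) it lay within 0.5, as for 64.9% of all genes, which were not matched to them for signal level. Both bounds were chosen after the values were seen. The share of all genes within 1 log2 unit was not counted, so the wider bound sets the members apart from no other genes. Differences of dim genes also depend on the offset added to the signal. With an offset of 50 in place of 16, Cnn1 differed by -0.16 instead of -0.34 and Pln by 0.19 instead of 0.32. For such genes the bounds do not limit the change in transcript. At an unadjusted p under 0.05, 5 of the 35 differed, against 20.8% of all genes. Both Dicer cKO pools lay above all control pools for 11 of the 35, while 19.9% of all genes did so, and below them for 2, against 17.6%. For the other 22 genes the groups overlapped.

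**Figure D1:**
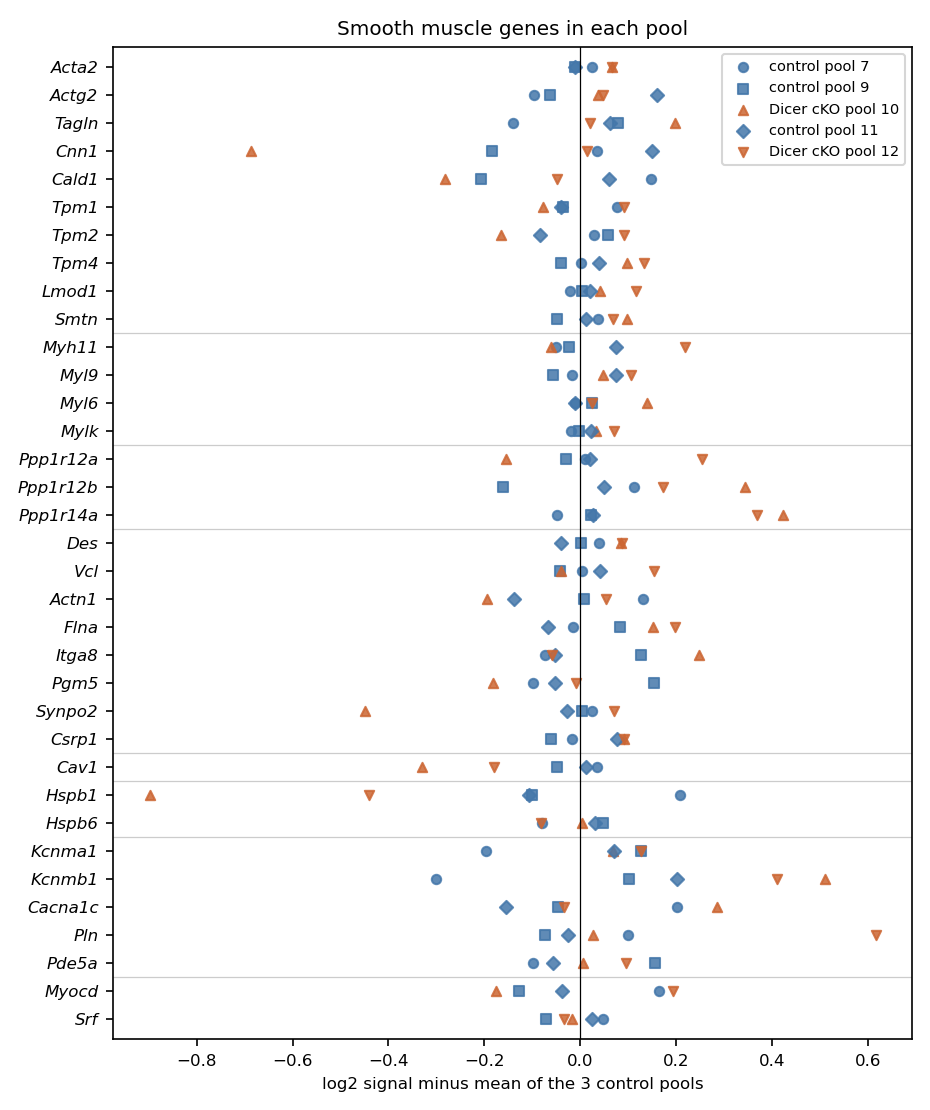
Normalized log2 signal of each of the 35 tested smooth muscle genes (rows, grouped by role) in each pool, shown on the x axis as the distance from the mean of the 3 control pools; blue symbols are control pools and orange symbols Dicer cKO pools. Most genes sit close to the control mean in all pools. Hspb1 and the uncalled Cav1 lie low in both Dicer cKO pools, and Ppp1r14a and the uncalled Kcnmb1 lie high in both. Cnn1 and Synpo2 lie low in pool 10 alone, and Pln lies high in pool 12 alone.

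The actins and their partners make up the thin filament, and 0 of its 10 genes were called by limma, with adjusted p from 0.342 to 0.977 and 0 at an unadjusted p under 0.05. Acta2, the smooth muscle alpha actin, had log2 signals of 14.32, 14.28 and 14.28 in controls 7, 9 and 11, and both Dicer cKO pools stood at 14.36. The Dicer cKO pools lay just above the controls, with a difference of 0.066 ± 0.055 (SE; 95% interval -0.056 to 0.19; limma adjusted p = 0.557). Values repeat exactly here because quantile normalization gives probes of equal rank on their arrays the same signal. Its probe is listed under the older name 0610041G09RIK, and 4 further probes of Acta2 differed by -0.030 to 0.16. Whether the probes tell apart transcripts of the near-identical actins was not tested.

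Actg2, the gamma actin typical of visceral muscle, read 13.30, 13.33 and 13.56 in the controls, against 13.43 and 13.44 in the Dicer cKO pools. Both Dicer cKO values fell inside the control range (0.042 ± 0.081, interval -0.14 to 0.22). Tagln, the actin-bundling transgelin, read 9.45, 9.66 and 9.65 in controls 7, 9 and 11 against 9.78 and 9.61, so the groups overlapped (0.11 ± 0.10, interval -0.12 to 0.34).

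Cnn1, calponin, a brake on actin-activated myosin, was the least certain of the thin filament genes. It read 5.33, 5.11 and 5.45 in the controls, 4.61 in pool 10 and 5.31 in pool 12. Pool 10, where the probe was not detected, stood low and pool 12 lay inside the control range (-0.34 ± 0.20, interval -0.79 to 0.12; limma adjusted p = 0.402). Without pool 10 the difference of Cnn1 was 0.014. Its interval was the widest of the thin filament, and the array held 1 probe for it.

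The remaining thin filament genes had differences between -0.17 and 0.11. Among the tropomyosins, which gate myosin access along actin, Tpm1 differed by 0.0061 ± 0.071, Tpm2 by -0.037 ± 0.087 and Tpm4 by 0.11 ± 0.062. Cald1, the actin- and myosin-binding caldesmon, stood at -0.17 ± 0.13, and its 3 further probes at -0.027, 0.17 and -0.019. Lmod1, a leiomodin that nucleates actin filaments, stood at 0.078 ± 0.092, and Smtn, smoothelin, at 0.083 ± 0.066.

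**Figure D2:**
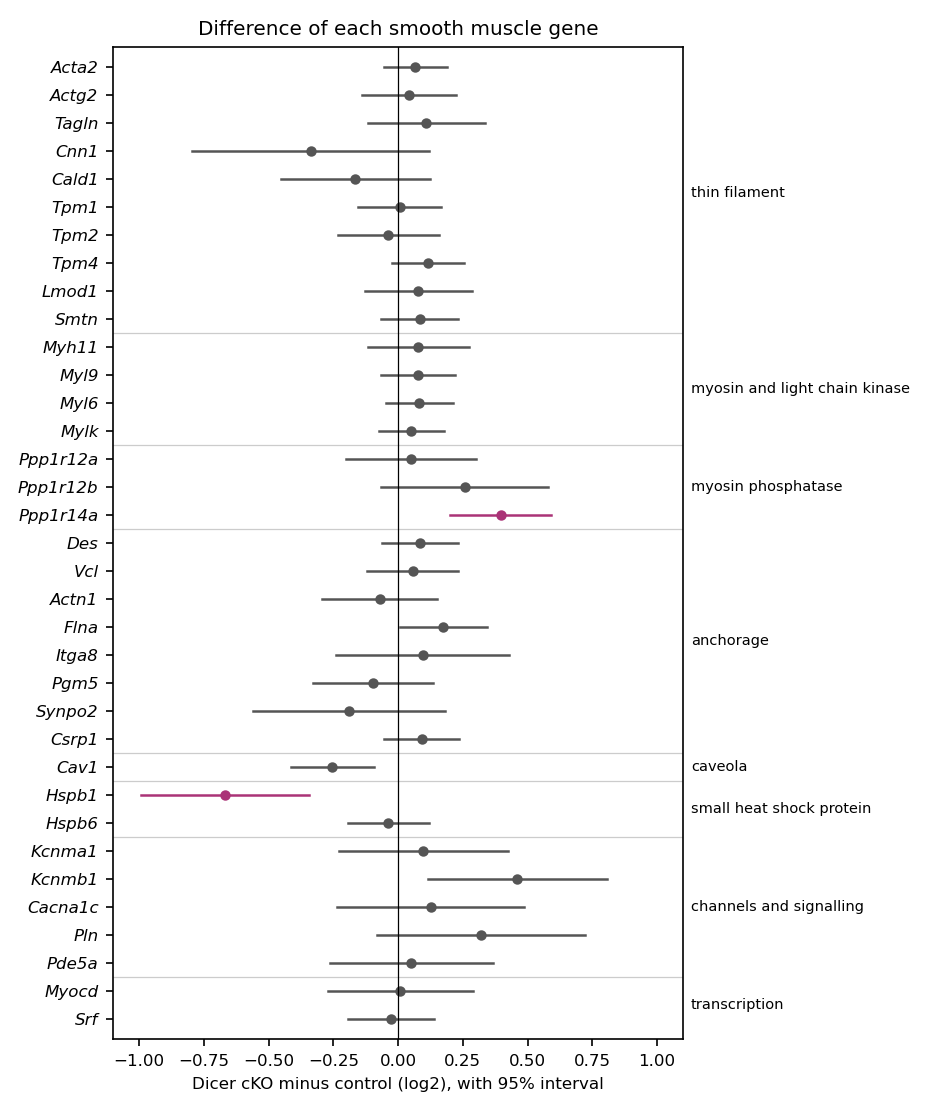
Difference between Dicer cKO and control pools (log2, x axis) for the 35 tested smooth muscle genes, grouped by role; points are the estimates, bars their 95% intervals from limma, and the genes in purple have an adjusted p under 0.05. Ppp1r14a and Hspb1 are the purple genes, and the interval of Hspb1 reaches lowest, to -0.99.

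Myosin itself and the kinase that activates it differed by less than 0.1 in every case, with 0 of 4 genes called by limma (adjusted p from 0.481 to 0.681) and 0 at an unadjusted p under 0.05. Myh11, the smooth muscle myosin heavy chain, read 12.71, 12.74 and 12.84 in controls 7, 9 and 11, against 12.70 and 12.98 in Dicer cKO pools 10 and 12. The Dicer cKO pools bracketed the controls (0.078 ± 0.088, interval -0.12 to 0.27). Myl9, the regulatory light chain that the kinase phosphorylates, read 13.67, 13.64 and 13.77 in the controls, against 13.74 and 13.80 in the Dicer cKO pools, and differed by 0.077 ± 0.064. Myl6, the essential light chain, differed by 0.082 ± 0.058, and Mylk, the kinase, by 0.052 ± 0.056. The 5 further probes of these light chain and kinase genes lay between -0.0010 and 0.19.

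The phosphatase arm held the gene that rose. Ppp1r14a encodes CPI-17, a small protein that inhibits the myosin phosphatase when phosphorylated and so makes muscle more sensitive to calcium. It read 8.96, 9.03 and 9.04 in controls 7, 9 and 11 against 9.43 and 9.38 in Dicer cKO pools 10 and 12. Both Dicer cKO pools lay clear of the controls, by 0.40 ± 0.087 or 1.32-fold (95% interval 1.15 to 1.51; limma adjusted p = 0.0260).

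The probe used decided this call. The second, dimmer probe of Ppp1r14a read 7.92, 8.48 and 8.58 in the controls, against 8.09 and 8.58 in the Dicer cKO pools, with the groups overlapping and a difference of 0.012. The mean of both probes differed by 0.20 (limma adjusted p = 0.413). Leaving out any of the 5 pools kept the difference between 0.37 and 0.42 but ended the call, with limma adjusted p of 0.0827, 0.0829 and 0.0545 when controls 7, 9 and 11 were dropped in turn and of 0.172 and 0.0573 when Dicer cKO pools 10 and 12 were.

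The targeting subunits of the same phosphatase were not called. Ppp1r12a, which holds the enzyme on myosin, differed by 0.050 ± 0.11, with pool 10 below and pool 12 above all controls. Ppp1r12b, its close relative, was listed under the older name 1810037O03RIK, was detected on 3 of 5 arrays and differed by 0.26 ± 0.14 (limma adjusted p = 0.358). It read 5.01, 4.74 and 4.95 in the controls, against 5.25 and 5.07 in the Dicer cKO pools, so the groups lay apart without reaching the threshold.

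Genes of the cytoskeleton and of cell anchorage followed, and 0 of 8 were called by limma, with adjusted p from 0.227 to 0.785 and 1, Flna, at an unadjusted p under 0.05. Des, encoding desmin, the intermediate filament of muscle, read 12.05, 12.01 and 11.97 in controls 7, 9 and 11 and 12.10 in both Dicer cKO pools. The groups did not overlap, yet the gap was small (0.086 ± 0.065, interval -0.061 to 0.23; limma adjusted p = 0.517). Flna, the actin crosslinker filamin A, read 11.08, 11.18 and 11.03 in the controls against 11.25 and 11.30 (0.18 ± 0.076; limma adjusted p = 0.227). Vcl, vinculin of the dense plaques, differed by 0.057 ± 0.078, and Csrp1, a LIM protein of the actin cytoskeleton, by 0.091 ± 0.065.

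The other anchorage genes went to either side of 0. Actn1, the actin crosslinker alpha-actinin, stood at -0.071 ± 0.10, Pgm5, encoding aciculin of adhesion plaques, at -0.095 ± 0.10, and Itga8, an integrin subunit of smooth muscle, at 0.095 ± 0.15. Synpo2, an actin-binding protein of muscle, stood at -0.19 ± 0.17. Its controls read 5.71, 5.69 and 5.66, pool 12 read 5.76 and pool 10 read 5.24, so only pool 10 stood apart, and without it the difference was 0.072.

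Hspb1 was the gene that fell. It encodes HSP27, a small heat shock protein that binds actin and that many cell types make, epithelial cells among them. It read 9.94, 9.64 and 9.63 in controls 7, 9 and 11, against 8.84 and 9.30 in Dicer cKO pools 10 and 12. All controls lay above both Dicer cKO pools, which themselves differed by 0.46, and the group difference was -0.67 ± 0.15, a 1.59-fold lower signal (95% interval -0.99 to -0.34; limma adjusted p = 0.0241). The call was lost without Dicer cKO pool 10, where the difference was -0.44 (limma adjusted p = 0.224), and without control pool 7, where it was -0.57 (limma adjusted p = 0.0734). A second probe of Hspb1 was not detected on enough arrays to be tested.

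Its muscle relative Hspb6, HSP20, which is phosphorylated as smooth muscle relaxes, read 12.39, 12.51 and 12.50 in the controls, against 12.47 and 12.38 in the Dicer cKO pools. The groups overlapped, with a difference of -0.039 ± 0.070 (interval -0.20 to 0.12). Whether the 2 heat shock genes differed from each other in response was not tested.

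Cav1, the main coat protein of caveolae, membrane pits that are dense in smooth muscle, endothelium and fat cells, came close to the threshold. Its controls read 12.32, 12.24 and 12.30 and its Dicer cKO pools 11.96 and 12.11. Both Dicer cKO pools lay below all controls, by -0.25 ± 0.072 (interval -0.42 to -0.093), and the gene was not called (limma adjusted p = 0.0701; from 0.0505 to 0.436 over 13 alternative settings).

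**Figure D3:**
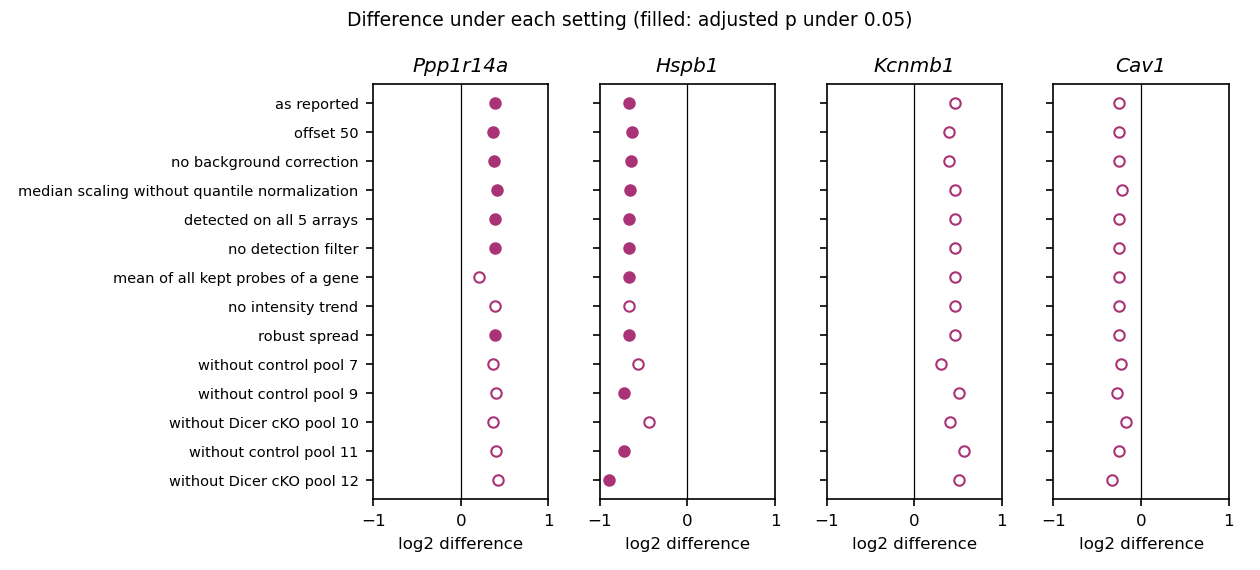
Difference between Dicer cKO and control pools (log2, x axis) of Ppp1r14a, Hspb1, Kcnmb1 and Cav1 as reported and under each of 13 alternative settings (rows); filled circles have a limma adjusted p under 0.05 and open circles do not. The signs hold in every row for these 4 genes, Ppp1r14a is filled in 6 and Hspb1 in 10 of the 13 alternatives, and Kcnmb1 and Cav1 are open throughout.

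Among channels and signalling genes, 0 of 5 tested were called by limma, with adjusted p from 0.120 to 0.888 and 1, Kcnmb1, at an unadjusted p under 0.05. Kcnmb1 is the beta subunit that tunes the large-conductance potassium channel of smooth muscle to calcium, a brake on contraction. It read 7.12, 7.52 and 7.62 in controls 7, 9 and 11, against 7.93 and 7.83 in Dicer cKO pools 10 and 12. Both Dicer cKO pools lay above the controls, which were themselves spread over 0.50, and the difference of 0.46 ± 0.15 (interval 0.12 to 0.80) did not pass (limma adjusted p = 0.120). Kcnma1, the pore subunit of the same channel, differed by 0.098 ± 0.15, with overlapping groups.

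At the probes used, the remaining channel genes had overlapping groups. Cacna1c, the pore of the L-type calcium channel, was detected on 4 of 5 arrays and differed by 0.13 ± 0.16. Its further probe, detected on 3 arrays, read 4.79, 4.94 and 5.02 in controls 7, 9 and 11, against 5.19 and 5.60 in Dicer cKO pools 10 and 12. There the groups lay apart, by 0.48 (limma adjusted p = 0.125 over all probes kept), and the mean of both probes differed by 0.30. Pln, phospholamban, which restrains the calcium pump of the sarcoplasmic reticulum, read 5.50, 5.33 and 5.37 in the controls, 5.43 in pool 10 and 6.02 in pool 12, so pool 12 alone stood high (0.32 ± 0.18; limma adjusted p = 0.358). Pde5a, the phosphodiesterase that ends cyclic GMP signals, differed by 0.051 ± 0.14. Oxtr, the oxytocin receptor, was detected on no array. Its brighter probe gave raw intensities of 50.1, 43.1 and 43.9 in controls 7, 9 and 11, against of 41.9 and 50.7 in Dicer cKO pools 10 and 12, not well above background, and it was the gene left untested.

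The transcription factors of the programme did not pass either, and both had overlapping groups and an unadjusted p over 0.05. Myocd, myocardin, read 9.96, 9.66 and 9.75 in controls 7, 9 and 11, against 9.62 and 9.99 in Dicer cKO pools 10 and 12. The Dicer cKO pools lay on either side of the controls (0.0087 ± 0.13, interval -0.27 to 0.29; limma adjusted p = 0.981), and without pool 12 the difference was -0.18. Srf, serum response factor, read 11.02, 10.90 and 11.00 in the controls, against 10.96 and 10.94 in the Dicer cKO pools, inside the control range (-0.026 ± 0.074, interval -0.19 to 0.14; limma adjusted p = 0.893).

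Serum response factor binds DNA at the CArG box, which is CC, then 6 bases that are A or T, then GG, and reads the same way on both strands. Promoter windows of 300 bases, from 250 before to 50 after a RefSeq transcription start in GRCm38.p6, were found for 32 of the 36 genes, and 4 of these 32 (12.5%) held a CArG box, namely Myl6, Myl9, Srf and Vcl. Windows for Myh11, Actg2, Tagln and Myocd were not used here, so the counts do not cover these core genes. The box was present for 1.71% of the 9738 tested genes that had a window. The stretches around these boxes are shown because they place the factor's known motif beside members whose signals hardly differed, and capitals mark the boxes. The lines give GRCm38.p6 coordinates and strand, each sequence 5′ to 3′ on the strand of the gene.
Myl6, chr10:128493010-128493099, minus strand: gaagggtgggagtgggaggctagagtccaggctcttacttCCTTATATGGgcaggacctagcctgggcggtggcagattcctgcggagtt
Myl9, chr2:156775263-156775352, plus strand: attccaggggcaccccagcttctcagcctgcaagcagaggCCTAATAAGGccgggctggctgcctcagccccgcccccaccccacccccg
Srf, chr17:46556175-46556284, minus strand: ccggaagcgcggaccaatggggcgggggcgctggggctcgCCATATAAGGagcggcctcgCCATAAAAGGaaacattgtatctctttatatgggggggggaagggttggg
Vcl, chr14:20929148-20929220, plus strand: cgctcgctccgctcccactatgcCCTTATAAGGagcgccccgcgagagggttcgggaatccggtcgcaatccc

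The boxes began 50 bases before the start in Myl6, 161 in Myl9, 82 and 62 in Srf and 227 in Vcl. The 4 genes with a box had differences from -0.026 to 0.082 with a median of 0.067. The 27 tested genes with a window and no such box had a median of 0.066, with values from -0.67 to 0.46. A match of letters is a description of the window. Only exact boxes were counted, so a box with a changed base counted as none. Boxes elsewhere in these genes were not searched.

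**Figure D4:**
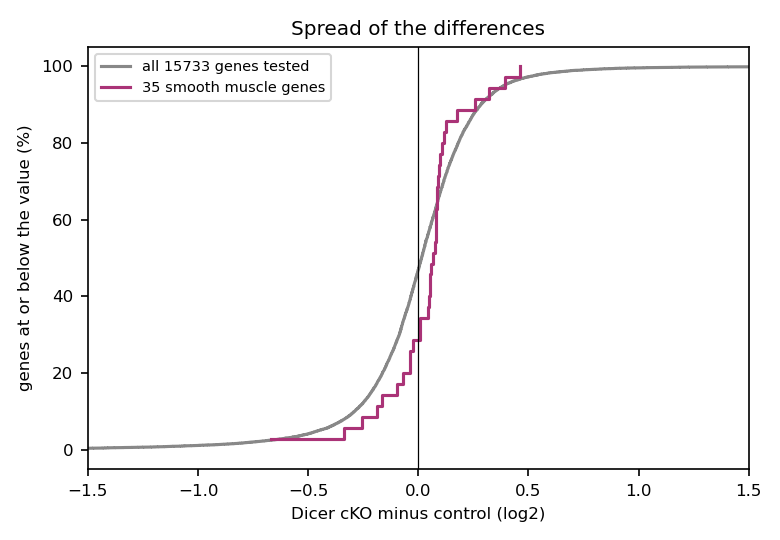
Cumulative share of genes (y axis, %) at or below each difference between Dicer cKO and control pools (x axis, log2), for all 15733 genes tested (grey) and the 35 tested smooth muscle genes (purple); differences beyond 1.5 on either side are not drawn. The purple line climbs steeply near its median of 0.066, and no smooth muscle gene lies below -0.67 or above 0.46.

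The Dicer cKO pools were less alike for the muscle genes than the control pools were. Their median absolute gap was 0.15 between pools 10 and 12, against 0.079 to 0.097 between pairs of controls, a description without a test. The same gap over all genes was not measured. Over all genes tested, pools 10 and 12 correlated at 0.9933, inside the range of the control pairs (0.9926 to 0.9943). Pool 12 exceeded pool 10 in 23 of 35 genes, with a median gap of 0.058, against -0.0045 over all genes. Pool 10 was the lowest of the 5 pools for 12 of 35 genes (34.3%), against 25.1% of all genes. The summed linear signal of the 35 genes was 168485, 166670 and 170367 in controls 7, 9 and 11, against 171684 and 176404 in Dicer cKO pools 10 and 12, so both Dicer cKO sums lay above the controls by a small margin. Such a sum weighs the brightest genes most. Myl6, the brightest member, read 14.97 in pool 10 against 14.82, 14.85 and 14.82 in controls 7, 9 and 11. Its further probes differed by -0.0010 and 0.0028. Without Myl6 the sum of pool 10 would lie inside the control range. In bulk tissue, fewer cells of a type and less RNA per cell cannot be told apart.

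Further probes of the members gave a second reading. Of 76 probes for the 36 genes, 64 were detected on at least 2 arrays, and 29 of those were not the probe used. Their differences ran from -0.17 to 0.48, and 0 passed a limma adjusted p under 0.05 over all probes kept. They departed from the probe used by a median of 0.11, and 16 of the 29 had its sign. The widest gap, 0.38, was that of Ppp1r14a.

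Genes around the contractile core were listed by function with the members left out, and their counts stand beside the 2.78% called higher and 3.96% called lower over all genes. Among 37 tested genes of further muscle structure, from non-muscle myosins to integrins and the dystrophin complex, 1 rose (2.70%), 0 fell and 36 did not pass, with a median of -0.060; 2 were called higher without control pool 11. The one that rose was Itga5, the fibronectin receptor subunit (0.38 ± 0.097; limma adjusted p = 0.0460), a call lost in 7 of 13 alternatives, among them the fits that dropped control 7 (0.137), control 9 (0.154), Dicer cKO pool 10 (0.267) or Dicer cKO pool 12 (0.0866). Among 22 regulators of serum response factor and of smooth muscle fate, 0 rose, 3 fell (13.6%) and 19 did not pass, with a median of -0.044. Without control pool 7 or Dicer cKO pool 10, 1 fell.

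The regulators that fell were Klf5, Crip2 and Tcf21. Klf5, a Krüppel-like factor of proliferating smooth muscle that epithelium also makes, read 10.74, 10.57 and 10.39 in controls 7, 9 and 11, against 9.81 and 9.79 in Dicer cKO pools 10 and 12. The groups lay far apart, and the difference of -0.77 ± 0.10 (limma adjusted p = 0.00215) was called under all 13 alternatives. Crip2, a LIM protein of smooth muscle, differed by -0.36 ± 0.071 (limma adjusted p = 0.0149; 0.0528 when control 7 was dropped, 0.141 when Dicer cKO pool 10 was). Tcf21, a factor of stromal and coronary progenitor cells that is also a stromal marker here, stood at -0.33 ± 0.083 (limma adjusted p = 0.0425) and lost its call when any of the 5 pools was left out (0.0661 to 0.257).

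Of 52 contraction signalling genes tested, 0 rose, 2 fell (3.85%) and 50 did not pass, with a median of -0.022. Without Dicer cKO pool 10, 1 fell, and without control pool 11, 1 rose. Itpr2, a calcium release channel of the endoplasmic reticulum found in many cell types, read 10.68, 10.48 and 10.10 in controls 7, 9 and 11, against 9.24 and 9.30 in the Dicer cKO pools. It fell by 1.15 ± 0.14 (limma adjusted p = 0.00151) and was called under all 13 alternatives, though the mean of its probes differed by -0.73. Rgs5, a G protein brake typical of pericytes, read 9.12, 9.12 and 8.90 against 8.38 and 8.57 (-0.57 ± 0.11; limma adjusted p = 0.0138; 0.0571 when control 9 was dropped, 0.141 when Dicer cKO pool 10 was).

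Markers of neighbouring cell types were read in the same pools, and their part in the differences above was not tested. Of 19 stromal markers tested, 5 fell and 1 rose, with a median of -0.21 and a summed linear signal of 57115 to 59192 in the controls against 48711 and 53859 in Dicer cKO pools 10 and 12. Vim, Thy1 and Twist2 led, at -0.82 ± 0.12, -0.79 ± 0.11 and -0.70 ± 0.081 (limma adjusted p = 0.00383, 0.00264 and 0.000948), and Vim lost its call without Dicer cKO pool 10 (0.0623). Without that pool 2 stromal markers fell and 0 rose, and 3 fell without control pool 9 or 11. Of 11 pericyte markers, 2 fell and 0 rose, Rgs5 and Anpep, an aminopeptidase that stroma and epithelium also make (-1.67 ± 0.12; limma adjusted p = 4.86e-05), with a median of -0.30 and sums of 9118 to 9694 against 5841 and 6774. Most of that gap in the sum lay in Anpep, without which the pericyte sums were 5538 to 5738 against 4799 and 5357, and 1 marker fell without control pool 9 or Dicer cKO pool 10. Endothelial markers differed less, with 1 of 16 lower, Vwf (-0.59 ± 0.13; limma adjusted p = 0.0301; 0.0923 and 0.105 when control 7 or 9 was dropped, 0.261 when Dicer cKO pool 10 was), a median of -0.028 and overlapping sums of 21512 to 23230 and of 21978 and 22944.

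Beside Hspb1, the 20 epithelial markers tested had 4 higher and 7 lower, a median of -0.15, and sums of 18531 to 23357 in the controls against 16478 and 16320. The count higher was 2 without control pool 9, Dicer cKO pool 10 or Dicer cKO pool 12, and the count lower was 4 without Dicer cKO pool 10. Among the epithelial markers Prom2 rose by 2.08 ± 0.18, while Ihh and Cldn3 stood at -1.96 ± 0.25 and -1.48 ± 0.17 (limma adjusted p = 0.000139, 0.00151 and 0.00109). Prom2 and Ihh were dim and each detected on 4 arrays, and their sizes depend on the offset. With an offset of 50, Prom2 differed by 1.37, Ihh by -1.33 and Cldn3 by -1.45. Beside Cav1, the 9 adipocyte markers tested had 3 lower and 0 higher, a median of -0.52, and sums of 5920 to 8529 against 3408 and 4637. Those lower were Adipoq, Cfd and Dgat2 (-1.42 ± 0.30, -1.38 ± 0.34 and -0.52 ± 0.11; limma adjusted p = 0.0210, 0.0408 and 0.0177), and the fat markers Fabp4, Plin1 and Retn were detected on no array. Without Dicer cKO pool 10 the differences were -0.94, -0.75 and -0.43 and all 3 calls were lost (0.190 to 0.333), as they were with no intensity trend (0.0599 to 0.0990). The call of Cfd was also lost without control pool 7 or 9 (0.119 and 0.0803), and that of Dgat2 without control pool 7 or 11 (0.0592 and 0.0524). Scaling to a common median called 5 adipocyte markers lower, while a robust spread called 1. With that spread Adipoq and Cfd lost their calls (limma adjusted p = 0.177 and 0.301), and Cfd lost it with no detection filter too (0.0636).

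Striated muscle was checked because its actins resemble those of the myometrium. Of 25 skeletal muscle markers, 10 were detected on no array, among them Ckm, Myh2, Myh4, Myod1 and Myog. Of the 15 tested, 1 rose and 2 fell, with a median of -0.11. Their sums overlapped, at 4665 to 5378 in the controls and 4135 and 4934 in Dicer cKO pools 10 and 12. Without Acta1, which fell, the sums were 2311 to 2513 against 2699 and 2999. Those sums still held Tnni2, the gene that rose, which read 9.63, 9.55 and 9.47 in controls 7, 9 and 11 against 10.25 and 10.59. Sums without both genes were not taken, so no common rise of the other markers can be read from them. Tnni2, a troponin subunit, rose by 0.87 ± 0.11 (limma adjusted p = 0.00160), while Acta1, the skeletal alpha actin, and Actn2, the alpha-actinin of striated muscle, stood at -0.69 ± 0.13 and -0.55 ± 0.13 (limma adjusted p = 0.0129 and 0.0345). Acta1 lost its call without Dicer cKO pool 10 (0.132), and Actn2 lost it when any of the 5 pools was left out (0.0585 to 0.229). Of 7 cardiac markers with a probe, 0 were detected on at least 2 arrays. Of 8 mesothelial markers limma called 0, with 1 at an unadjusted p under 0.05 (Muc16, 0.43 ± 0.18; limma adjusted p = 0.210) and a median of 0.077. Of 5 nerve and glia markers it called 0, with 0 at an unadjusted p under 0.05, and the furthest from 0 for its error was Mbp at 0.33 ± 0.16.

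**Figure D5:**
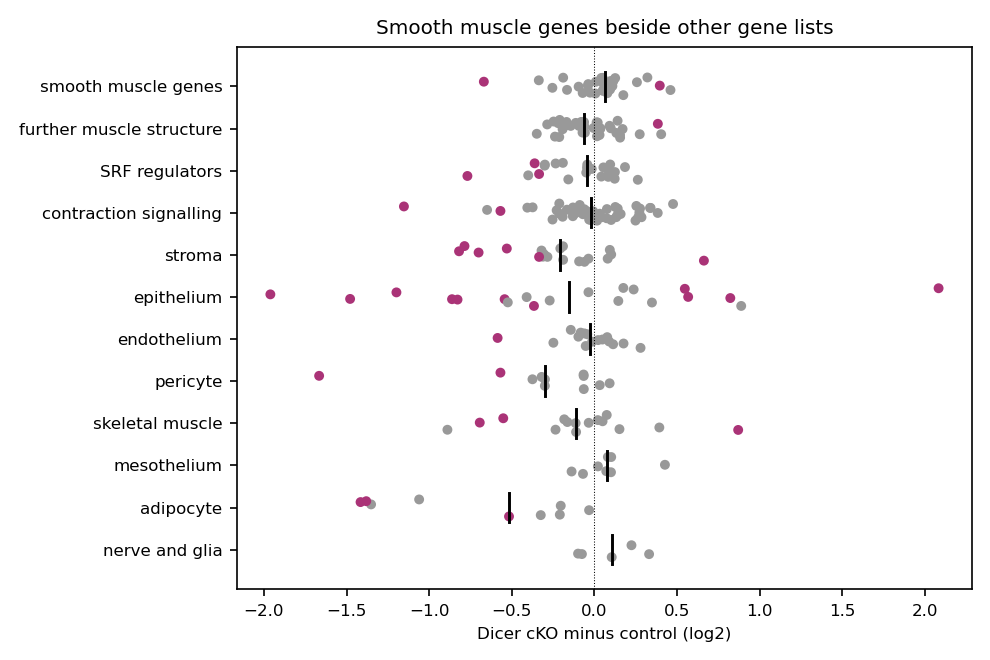
Difference between Dicer cKO and control pools (log2, x axis) for every tested gene of the smooth muscle set and of the other lists (rows); each point is a gene, purple where the limma adjusted p is under 0.05, and the black bar is the median of the list. The smooth muscle points sit close to 0 with a median of 0.066, while the stromal, pericyte and adipocyte medians lie at -0.21, -0.30 and -0.52.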

How the data were processed

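Total RNA of 3 control and 2 Dicer cKO pools was read on 1 bead array each. Per the file headers, each deposited array file gives, for 45281 probes, the mean bead intensity, its bead SD, the bead number (other) and a detection score whose complement is the detection p. BeadStudio is named in the submitters' processing notes, with nothing said of background subtraction. The deposited intensities were corrected with normexp from the detection p (neqc, offset 16), quantile normalized and put on a log2 scale with limma 3.58.1 in R 4.3.3. Probes detected on 2 or more arrays (detection p under 0.05; 22845 probes) were kept, and the brightest probe over all arrays stood for each of 15733 genes. Array names were updated through RefSeq (22864 probes by current symbol, 11917 by synonym, 10500 kept as listed). Groups were compared with lmFit and eBayes with an intensity trend, 2-sided, with Benjamini-Hochberg adjustment over all genes. The code was first run on simulated data. The shifts set there were larger than the differences of the called members, and spreads were shuffled among genes. That run therefore does not bear on calls of this size or on the intensity trend. No replicate numbers were shared, so nothing was paired, and slide and scan batches are unknown. An exact permutation over 5 pools cannot go below 0.1 in 10 splits, so none is given. The number of arrays limits the precision.

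The members and lists were chosen with earlier results of these data known. By rule, pool values are given for called members and for Acta2, Actg2, Myh11, Cnn1, Tagln, Des, Myocd, Srf and Oxtr. Other members given by pool, and the promoters of Myl6, Myl9 and Vcl, were chosen after values or motif matches were seen. From each other list, up to 3 called genes with the largest difference are named, or with no call the one with the largest moderated t. Offset, background, scaling, filter, probe rule, variance model and each pool were varied. The series' normalized value table was not used, because its row identifiers match no probe column.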

Additional observations from a re-analysis of the deposited data

How the results depend on the processing

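Over 13 alternatives, 420 of 452 values of single members kept their direction and their side of the threshold, 10 lost the call, 0 gained one and 22 changed sign. Part of that outcome was fixed in advance. Dropping the intensity trend, a robust spread and either change of detection filter left each tested member's difference as it was. No sign could change there, and 33 members had no call to lose. The median difference of the members stayed between 0.033 and 0.088. The number of members called higher was 0 with the mean of all probes and with no intensity trend, and 0 to 0 with any pool left out. The number called lower was 0 with no intensity trend, and 0 to 1 with a pool left out. Over all genes, calls higher and lower numbered 108 and 196 without Dicer cKO pool 10, 225 and 397 without control pool 7, 231 and 421 without control pool 9, 281 and 454 with no intensity trend and 286 and 459 with no detection filter, against 438 and 623. Scaling to a common median turned Hspb6 to 0.0051 and Tpm1 to -0.0027, and the mean of all probes turned Srf to 0.074 and Tpm2 to 0.087. With a pool left out, some uncalled members crossed 0: Actg2 ranged from -0.0050 to 0.12, Actn1 from -0.19 to 0.052, Cacna1c from -0.035 to 0.28, Cnn1 from -0.69 to 0.014, Hspb6 from -0.086 to 0.0042, Itga8 from -0.060 to 0.25, Kcnma1 from -0.0009 to 0.16, Myh11 from -0.063 to 0.21, Myocd from -0.18 to 0.19, Ppp1r12a from -0.16 to 0.25, Synpo2 from -0.45 to 0.072, Tpm1 from -0.083 to 0.093, Tpm2 from -0.17 to 0.091 and Vcl from -0.042 to 0.16. The cause was not tested. Where a pool was left out of the Dicer cKO group, its lone pool was assumed to vary like the controls. The series' normalized value table was not run as an alternative, because its rows match no probe. Dim genes limit the reading: Cnn1, Cacna1c and Ppp1r12b were detected on some arrays and Oxtr on none. No paired analysis was possible because the groups share no pool number.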
